A study of Mus musculus with 18 samples.

Results

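Nonconfined cPLA_2_ WT DCs were described at steady state from bulk RNA-seq of bone marrow cultures, using the libraries whose labels give the genotype as WT of cPLA2 and no treatment, which were 3 of the 18 libraries sequenced. Of 25177 genes listed with a symbol, 12587 were detected, defined as at least 10 normalized counts in each of the 3 libraries. The study confined DCs between surfaces to ask how a change of cell shape alters them, and sequenced nonconfined, confined and LPS-treated cells of cPLA_2_ WT and cPLA_2_ KO genotype. The libraries described here hold cells collected when the culture ended, after 10 days in medium with GM-CSF supplied as supernatant of transfected J558 cells, and their titles name them immature. LPS stands in the protocol text of every sample, but the title and treatment entry of these 3 libraries do not name it, and they were taken as untreated. The knockout was made with floxed *Pla2g4a* and *Itgax-cre*, and controls were littermates or age-matched animals on a C57BL/6 background. Mice of either sex were used in the study. The culture also yields granulocytes and macrophages, and the semiadherent cells were kept as DCs. The labels name no sorting step. The labels do not say whether the 3 libraries come from separate animals, and the SD given here measures only the spread between these libraries. They were poly(A)-selected and strand-specific, and the labels name a pair of preparation kits without saying which library was made with which.

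DCs sample antigen in tissues, process it in endosomes and lysosomes, and present it on MHC molecules to T cells. In culture, GM-CSF drives bone marrow precursors through the common β-chain receptor toward cells that share features of conventional DCs and of monocyte-derived cells. Immature DCs capture antigen and carry receptors for inflammatory chemokines, and on maturation they gain CCR7, costimulatory ligands and chemokines that attract T cells.

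Values are normalized counts, that is the reads of a gene after division by the size factor of its library, and they are not adjusted to the length of the gene. The libraries held 45020354, 39851237 and 34689393 reads on genes in replicates 1, 2 and 3, and after scaling their totals were 34304766, 33981771 and 34088763 normalized counts. A gene at 0 in a library is bounded by 3 reads, which equal 2.29, 2.56 and 2.95 normalized counts in replicates 1, 2 and 3. These floors cover counting error only, since the reads carry no molecular identifiers. Of the genes with a symbol, 8726 had no read in any of the 3 libraries and 3864 had reads but were not detected. Among detected genes the median level was 789 normalized counts. A level of 1000 or more was reached by 5596 genes with a symbol and of 10000 or more by 536. Where genes are compared with each other, counts were divided by the length of the gene's exon union in kb, which was known for 12098 detected genes (96.1%). These lengths come from GENCODE and not from FAST DB, the annotation on which the reads were counted and which was not at hand, so that values per kb and orders based on them are approximate. Of these, 11552 were protein-coding and 424 were long noncoding RNA genes. Their median was 125 normalized counts per kb, which serves as the background for the lists of genes by role and by cell type. Of 605 listed genes found in the table, 530 were detected.

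Among genes with a symbol, the largest share of counts went to *Psap*, which encodes prosaposin, the precursor of lysosomal activators of sphingolipid breakdown. The gene lies at 60113450 to 60138383 of chromosome 10 (mm39). It was present at 320642, 306072 and 311059 normalized counts in replicates 1, 2 and 3, and held 0.994 ± 0.0166% of the counts on genes with a symbol (mean ± SD, n = 3 libraries, as throughout). In descending order of counts *Fth1*, the ferritin heavy chain, reached 264700 ± 3808, *Cd74*, the invariant chain of MHC class II, 240559 ± 10332, and *Lyz2*, the myeloid lysozyme, 238503 ± 2609 normalized counts. The library ranges of *Cd74* and *Lyz2* overlapped, so that their order is not resolved, whereas those of *Psap* and *Fth1* lay apart from each other and from both. The 10 most abundant genes held 6.60 ± 0.00663%, the 30 most abundant 12.4 ± 0.0518%, the 100 most abundant 22.1 ± 0.0846% and the 1000 most abundant 55.7 ± 0.0620% of counts. These shares differed little between libraries, but on counts per kb of exon union the share of the 100 most abundant genes was 36.9%.

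Among the 30 genes with the highest normalized counts, antigen presentation was represented by *Cd74*, *B2m*, *H2-Ab1* and *H2-Aa*. Lysosomes were represented by *Psap*, *Lyz2*, *Ctsb* and *Ctsd*. *Cst3*, also among the 30, encodes an inhibitor of cysteine cathepsins that is abundant in DCs. It was present at 180003, 173409 and 176565 normalized counts in replicates 1, 2 and 3. The cytoskeleton was represented by *Actb*, *Actg1*, *Lcp1*, *Vim*, *Cfl1* and *Flna*, and protein synthesis and folding by *Eef1a1*, *Eef2* and *Hsp90ab1*. Both ferritin genes, *Fth1* and *Ftl1*, were among the 30. Secreted myeloid products included *Ccl6*, a chemokine that signals through CCR1, at 144511, 148526 and 147869 normalized counts, *Chil3*, a chitinase-like protein, at 81422, 86592 and 85846, and *Mfge8*, which bridges apoptotic cells to phagocytes, at 80145, 75128 and 76515 in replicates 1, 2 and 3. *Lgals3*, *S100a9*, *Ifitm1*, *Gnai2*, *Ly6e*, *Csf2rb* and *Itgam*, of other roles, completed the list. The lowest of the 30 was *Itgam* with 66181 ± 704 normalized counts.

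On the scale of counts per kb, short genes moved up. The entry of *Mir682* ranked above all others at 143431 ± 7767 normalized counts per kb, but the annotated hairpin has only 96 bases while the entry spans positions 75792983 to 75793345 of chromosome 13, so this value is overstated. The next were *Ftl1*, the ferritin light chain, at 99729 ± 3692, *Psap* at 97868 ± 2318, *Cst3* at 97709.6 ± 1824 and *Cd74* at 95649.7 ± 4108 normalized counts per kb. The library ranges of these 4 genes overlapped, and their order is not resolved. An entry without a symbol that overlaps the pseudogene *Ftl1-ps1* on chromosome 13 had 54826 ± 131 normalized counts. Reads shared with this copy make the level and rank of *Ftl1* less certain. *S100a9*, a calcium-binding alarmin of neutrophils and monocytes, followed at 89019 ± 1504, and its partner *S100a8* reached 61976 ± 1498 normalized counts per kb. *Rplp1*, a ribosomal protein gene, and *Rps6-ps4*, a pseudogene whose reads may come from a near-identical copy, were also among the 15 highest per kb. With the longest transcript in place of the exon union 14 of the 15 stayed among the highest 15, and with the canonical transcript 13.

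**Figure D1:**
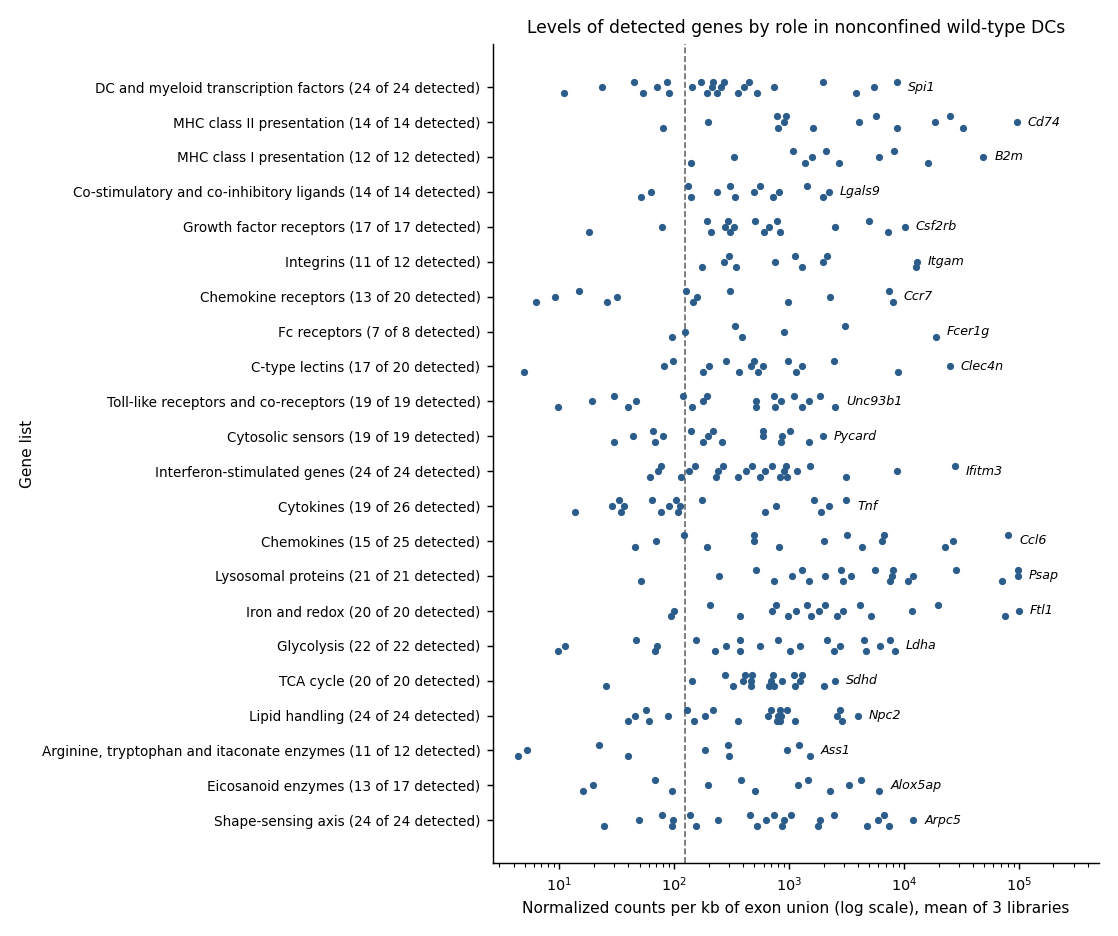
Levels of list members by role, as normalized counts per kb of exon union on a log axis. Each point is the mean of 3 libraries for a detected gene with a known length, the gene of each list that is highest per kb is named, and the dashed line marks the median of detected genes, 125; the lists of MHC class II, lysosomal and iron and redox genes lie mostly to its right, whereas cytokines scatter on both sides.

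Transcription factors of the DC and myeloid lineages were detected in 24 of 24 cases, beside 12587 of 25177 for all symbols, and the detected members had a median percentile of 63.7 among detected genes per kb. *Spi1*, which encodes PU.1, the master regulator of myeloid cells, was present at 27464, 25300.1 and 26235 normalized counts in replicates 1, 2 and 3. It was the most abundant factor per kb, at 8717 ± 359, followed by *Cebpb* at 5464 ± 418, *Id2* at 3863 ± 70.6 and *Cebpa* at 1993 ± 33.9 normalized counts per kb. C/EBP factors act in granulocyte and monocyte development, and ID2, an inhibitor of E proteins, is needed for conventional DCs. The library ranges of these 4 genes did not overlap, although *Cebpb* and *Id2* changed places when the canonical transcript length was used.

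Factors that part the DC subsets were present at lower levels. *Irf4*, which acts in cDC2 and in monocyte-derived DCs, was present at 3754, 3631 and 3589.8 normalized counts in replicates 1, 2 and 3, and *Irf8*, which acts in cDC1 and pDC, at 2585, 2642 and 2640.5. Per kb *Irf4* was at 746 ± 17.5 and *Irf8* at 269.7 ± 3.31, with no overlap between libraries. *Batf3*, the cDC1 factor, reached 405 ± 28.5, and *Zbtb46*, a marker of the conventional DC lineage, 45.2 ± 2.56 normalized counts per kb. *Relb*, the NF-κB subunit of mature DCs, was at 528 ± 15.2 normalized counts per kb. *Tcf4*, the E protein that directs pDC development, was lowest of the 24 at 10.9 ± 1.05 normalized counts per kb. Of the 23 neighbouring pairs in the order of factors per kb, 3 overlapped in their library ranges, namely *Zeb2* and *Bcl6*, *Klf4* and *Runx3*, and *Batf* and *Runx1*.

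The label was checked against markers of conventional DCs, of which 10 of 10 were detected and 4 also stand on another list. *Itgax*, which encodes CD11c and also drives the Cre of the knockout, was present at 6289, 6386 and 6167 normalized counts in replicates 1, 2 and 3, *Zbtb46* at 709, 719 and 786 and *Flt3*, the receptor for the DC growth factor FLT3L, at 128, 113 and 116. *H2-Ab1* made up 87.3% of the summed counts of this list. The median percentile of the list among detected genes per kb was 38.8, so that its summed level rested on this gene. *Kmo*, an enzyme of tryptophan breakdown, was at 417 ± 15.5, *Adam19*, a membrane protease, at 110.3 ± 5.70 and *Dpp4* (CD26) at 48.5 ± 2.18 normalized counts per kb. *Rab30* was the lowest at 5.61 ± 0.597 normalized counts per kb.

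Of the cDC2 markers, 9 of 10 were detected, with a median percentile of 85.9 among detected genes per kb, and their summed level was 92655, 92885 and 94311 normalized counts in replicates 1, 2 and 3. Of the cDC1 markers, 8 of 10 were detected, with a median percentile of 71.8, and their sum was 20760.2, 20531 and 20488 normalized counts. Other lists also hold 5 of the cDC2 and 6 of the cDC1 markers, and *Naaa* held the largest part of the cDC1 sum. The cDC2 sum rested largely on genes that other cells express as well, namely *Cd24a*, also of cDC1 and neutrophils, at 30840.4 ± 841 and *S100a4*, also of monocytes, at 19188 ± 82.8 normalized counts, and the lists were not tested against each other. *Sirpa*, the receptor for CD47 that marks cDC2, was present at 14226, 13796 and 13759.6 and *Mgl2* (CD301b), a lectin of dermal cDC2 and of macrophages, at 20245, 19811 and 20534 normalized counts in replicates 1, 2 and 3. Of the defining receptors of cDC1, *Xcr1* was not detected, at 1.52, 6.82 and 1.97, and *Clec9a* was detected just above the limit, at 13.0, 17.1 and 18.7 normalized counts in replicates 1, 2 and 3. Of the exon bases of *Clec9a*, 77.1% lie opposite exons of *Clec1a* on the other strand, so its few counts are uncertain. *Cadm1*, a further surface marker of cDC1, was at 3.05, 5.12 and 5.90, and among cDC2 markers *Esam*, of splenic cDC2, was at 8.38, 6.82 and 9.83 normalized counts and was not detected. *Batf3*, *Irf8* and *Itgae* (CD103), also on the cDC1 list, were detected at 646 ± 45.5, 2623 ± 32.2 and 2132 ± 14.6 normalized counts.

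Of the pDC markers 6 of 10 were detected, and *Bst2*, which interferon induces in many cells, held 90.9% of their summed counts of 11643, 11738 and 11347 in replicates 1, 2 and 3. *Siglech*, which defines mouse pDC, was at 4.57, 3.41 and 15.7 normalized counts, and *Ly6d* at 6.10, 1.71 and 0. *Siglech* passed the limit of 10 only in replicate 3 and *Ly6d* in no library, so neither was detected. The other detected markers *Runx2*, *Tcf4*, *Pacsin1*, *Spib* and *Cox6a2* had means of 327, 308, 258, 109 and 18.9 normalized counts. Of the 10 genes, 3 also stand on another list.

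Genes of MHC class II presentation were detected in 14 of 14 cases and had a median percentile of 95.9 among detected genes per kb. They held 1.82% of counts on genes with a symbol. *H2-Ab1*, which encodes the I-A β-chain, was present at 86934, 81989 and 82973, *H2-Aa*, the α-chain, at 79858, 79875 and 79077, and *H2-Eb1*, the I-E β-chain, at 65114, 65005 and 64256 normalized counts in replicates 1, 2 and 3. Per kb the order was *Cd74* at 95649.7 ± 4108, *H2-Ab1* at 32697 ± 1019, *H2-Eb1* at 24958 ± 180.0 and *H2-Aa* at 18547 ± 106 normalized counts, with no overlap between neighbours. With canonical transcript lengths the order was *Cd74*, *H2-Aa*, *H2-Ab1* and *H2-Eb1*.

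Peptide loading genes followed. *Ctss*, the cathepsin that trims the invariant chain, was at 8704 ± 65.9, *H2-DMb2* at 5733 ± 151 and *H2-DMa* at 4078 ± 150.0 normalized counts per kb, the latter 2 encoding subunits of the peptide exchange factor H2-DM and changing places with canonical transcript lengths. *H2-Oa* and *H2-Ob*, which encode its inhibitor H2-DO, were lower at 799.5 ± 41.9 and 196 ± 2.44 normalized counts per kb. *Ciita*, the transactivator of MHC class II genes, was at 789 ± 24.0 and overlapped with *H2-Oa* in its library range. *Marchf1*, the ubiquitin ligase that removes MHC class II and CD86 from the surface of immature DCs, was present at 7712, 7682 and 7958 normalized counts in replicates 1, 2 and 3, a level of 945 ± 18.4 per kb. Genes from the transactivator to the turnover of class II molecules thus had counts in every library.

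For MHC class I, 12 of 12 genes were detected with a median percentile of 95.4. *B2m*, the light chain, was present at 101098, 103435 and 104677 and *H2-K1*, a heavy chain, at 26794, 25769.9 and 25655 normalized counts in replicates 1, 2 and 3. Another heavy chain was counted in the joint entry *H2-D1 // H2-L*, with 49312 ± 1394 normalized counts, in which genes cannot be told apart. Per kb *Calr*, a chaperone of the loading complex, was at 16159 ± 331 and *Pdia3* at 6066 ± 163 normalized counts. The subunits of the peptide transporter, *Tap2* and *Tap1*, were at 1587 ± 12.6 and 1083 ± 26.6 normalized counts per kb. *Nlrc5*, the transactivator of class I genes, was lowest at 139 ± 4.99 normalized counts per kb. No neighbouring pair in the order of the 11 genes with a length overlapped, but with canonical transcript lengths *Tap2* fell below *Psmb9* and *Tap1*.

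Ligands that costimulate or inhibit T cells were detected in 14 of 14 cases, at a median percentile of 76.3. *Cd86* was present at 3097, 3193 and 3163 and *Cd80* at 2199.8, 2338 and 2336 normalized counts in replicates 1, 2 and 3, both ligands of CD28 and CTLA-4. *Cd40*, the receptor for CD40L from helper T cells, was at 482, 462 and 411, and *Cd274*, which encodes PD-L1, at 3039, 2858 and 2909 normalized counts in replicates 1, 2 and 3. Per kb *Cd86* was at 819 ± 12.8, *Cd274* at 719 ± 22.8, *Cd80* at 555 ± 19.2 and *Cd40* at 133 ± 10.8 normalized counts. The library ranges of these 4 did not overlap, and with canonical transcript lengths *Cd80* moved above *Cd86* and *Cd274*. The highest members per kb were *Lgals9*, which encodes galectin-9, at 2219.5 ± 48.1, *Cd83*, a stabilizer of surface MHC class II, at 1992 ± 57.6 and *Vsir*, which encodes the checkpoint protein VISTA, at 1444 ± 34.5 normalized counts. *Cd70*, the ligand of CD27, was the lowest member at 51.2 ± 13.7 normalized counts per kb, next to *Nectin2* at 62.4 ± 6.53, with which it overlapped. The cells thus held mRNA of both stimulatory and inhibitory ligands.

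Markers of mature or migratory DCs were detected in 20 of 20 cases, with a median percentile of 83.5 and a sum of 202722, 199428 and 201177 normalized counts in replicates 1, 2 and 3, and 8 of them also stand on another list. The most abundant was *Ccl22*, a chemokine for CCR4+ T cells, at 56584, 54570.4 and 55835 normalized counts, and *Ccl17*, a ligand of the same receptor, was at 18079.6, 17903 and 17654. *Ccr7* had 16166, 15734 and 15753 and *Fscn1*, which encodes the actin-bundling protein fascin, 16066, 15255 and 15005 normalized counts in replicates 1, 2 and 3. Per kb *Ccl17* was at 26926 ± 322, *Ccl22* at 22776 ± 416, *Ccr7* at 7998 ± 123 and *Fscn1* at 5105 ± 183 normalized counts. *Apol7c* was at 3828 ± 21.3, *Cd83* at 1992 ± 57.6 and *Socs2*, a suppressor of cytokine signaling, at 403 ± 2.73 normalized counts per kb. *Il4i1*, an amino acid oxidase, is listed jointly with *Nup62*, and the 15505 ± 780.1 normalized counts of this entry cannot be assigned to either gene. At the lower end *Il15ra*, *Tbc1d4* and *Laptm4b* were at 39.6 ± 1.94, 58.9 ± 2.87 and 80.3 ± 4.86 normalized counts per kb. The other 19 markers were measurable in libraries whose titles name the cells immature. Bulk values do not tell a few cells with much of an mRNA from many cells with little, that is, fewer cells of a type and less RNA per cell cannot be told apart.

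Receptors for growth factors and regulatory cytokines were detected in 17 of 17 cases at a median percentile of 80.4. The common β-chain of the GM-CSF, IL-3 and IL-5 receptors, *Csf2rb*, was present at 76355, 72466 and 73274 and its mouse paralog *Csf2rb2* at 35348, 33806 and 34295 normalized counts in replicates 1, 2 and 3. The 2 genes are close copies, and reads shared between them make both values less certain. *Csf2ra*, the GM-CSF binding chain, was at 7919, 6962 and 7345 normalized counts. *Csf1r*, the M-CSF receptor of monocytes and macrophages, was present at 37988, 36027 and 36278 normalized counts in replicates 1, 2 and 3. Per kb *Csf2rb* was at 10173 ± 282, *Csf1r* at 4994 ± 145, *Csf2ra* at 2534 ± 165 and *Flt3*, the lowest of the list, at 18.3 ± 1.20 normalized counts, with no overlap between libraries. *Il10rb* and *Il10ra*, the chains of the IL-10 receptor, were at 789 ± 8.77 and 509.6 ± 3.04, and *Ifnar1* and *Ifnar2*, the receptor for type I interferon, at 307 ± 13.2 and 606 ± 14.8 normalized counts per kb. *Kit*, the receptor for stem cell factor, was at 77.8 ± 1.24 normalized counts per kb.

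Chemokine receptors were detected in 13 of 20 cases, with a median percentile of 53.8 for the detected members. *Ccr1*, a receptor for inflammatory chemokines, was present at 20318, 21944 and 21325 normalized counts in replicates 1, 2 and 3. *Ccr2*, the receptor for CCL2 on monocytes, was at 2012, 2060.2 and 2167, and *Cxcr4*, the receptor for CXCL12 in bone marrow, at 4029, 4114 and 4206 normalized counts. Per kb *Ccr7* at 7998 ± 123 stood above *Ccr1* at 7469 ± 289, *Cxcr4* at 2259 ± 48.5 and *Ccr2* at 307 ± 11.7 normalized counts, and the library ranges of these 4 did not overlap. Receptors of inflammatory and of lymph node chemokines were thus both present. *Ccr4* was at 147 ± 7.93 and overlapped with *Ccrl2*, an atypical receptor, at 159 ± 8.08 normalized counts per kb. *Cx3cr1*, a receptor of monocytes and microglia, had 9.14, 10.2 and 18.7 normalized counts and was not detected. *Xcr1*, *Cxcr1*, *Cxcr6*, *Ccr8* and *Ackr3* stayed below 10 normalized counts in every library, while *Ccr9* passed that level only in replicate 2 with 5.33, 18.8 and 5.90 normalized counts in replicates 1, 2 and 3.

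Of the integrins, 11 of 12 were detected at a median percentile of 90.9. *Itgam*, which encodes CD11b, was present at 66989.8, 65851 and 65702 and its partner *Itgb2* (CD18) at 42701, 40276 and 40757 normalized counts in replicates 1, 2 and 3. Per kb these were at 12931 ± 138 and 12714 ± 396 and overlapped. *Itgax* was at 1294 ± 22.6 and *Itgal*, the α-chain of LFA-1, at 1136 ± 26.1 normalized counts per kb. In normalized counts without division by length *Itgal*, at 7477 ± 172, lay above *Itgax*, at 6281 ± 109.6. *Itgb7* was at 2127 ± 73.0 and *Itgae*, which pairs with it and binds E-cadherin, at 342 ± 2.34 normalized counts per kb. *Itgb8*, which activates TGFβ, had 1.52, 0 and 0 normalized counts and was not detected at this depth.

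Fc receptors were detected in 7 of 8 cases. *Fcer1g*, the signaling γ-chain shared by activating Fc receptors, was present at 22175, 22000.1 and 21969 normalized counts in replicates 1, 2 and 3 and was the highest per kb at 19023 ± 96.0. *Fcgr3* was at 3046 ± 36.8, *Fcgr1* at 907 ± 23.4 and *Fcgr2b*, the inhibitory receptor, at 386 ± 4.86 normalized counts per kb. *Fcgr4* at 125 ± 20.3 and *Fcer1a*, the IgE-binding chain, at 96.2 ± 25.4 normalized counts per kb overlapped. *Fcer2a* stayed near the floor with 3.05, 3.41 and 3.93 normalized counts.

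C-type lectins were detected in 17 of 20 cases at a median percentile of 79.8. *Clec4n*, which encodes dectin-2, a receptor for fungal mannans, was present at 35101, 35848 and 35886 normalized counts in replicates 1, 2 and 3. Per kb it reached 25079 ± 312, above *Mgl2* at 8800.4 ± 159, *Clec4d* at 2450.4 ± 74.6, *Clec4a2* at 1286 ± 52.3 and *Clec5a* at 1159 ± 66.8 normalized counts. *Clec7a*, which encodes dectin-1, a receptor for β-glucan, was at 983 ± 25.8 normalized counts per kb, and with canonical transcript lengths it moved above *Clec4d*, *Clec4a2* and *Clec5a*. *Clec10a* at 541 ± 17.3 overlapped with *Clec12a* at 593 ± 32.5, and the mannose receptor *Mrc1* at 495 ± 17.3 with the langerin gene *Cd207* at 466 ± 13.0 normalized counts per kb. *Ly75*, which encodes the endocytic receptor DEC-205, was at 82.4 ± 2.95, and *Cd209a*, the mouse DC-SIGN gene used as a marker of monocyte-derived DCs, at 97.4 ± 0.667 normalized counts per kb. The other CD209 paralogs on the list, *Cd209b*, *Cd209d* and *Cd209e*, were not detected. Several of these genes are close paralogs, such as *Clec4a1*, *Clec4a2* and *Clec4a3*, with less certain values.

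All 19 Toll-like receptor genes and their co-receptors were detected, at a median percentile of 80.4. *Unc93b1*, which escorts nucleic acid-sensing receptors to endosomes, was the most abundant at 16000.1, 15266 and 15516 normalized counts in replicates 1, 2 and 3. *Tlr2*, a sensor of bacterial lipoproteins, was present at 10388, 10270.1 and 10224, and *Tlr4*, the LPS receptor, at 5804, 5908 and 6051 normalized counts. Per kb the receptors came in the order *Tlr2* at 1872 ± 15.4, *Tlr13*, a sensor of bacterial ribosomal RNA, at 1302 ± 28.0, *Tlr4* at 845 ± 17.7, *Tlr9*, a sensor of unmethylated DNA, at 512 ± 18.9 and *Tlr7*, a sensor of RNA, at 511 ± 15.4 normalized counts. Of these neighbours only *Tlr9* and *Tlr7* overlapped, and with canonical transcript lengths *Tlr4* moved above *Tlr13* and *Tlr7* above *Tlr9*. *Cd180*, an LPS-related co-receptor, was at 1482 ± 40.6, *Cd14* at 1097 ± 44.9 and *Ly96*, the MD-2 partner of TLR4, at 193 ± 17.8 normalized counts per kb. *Tlr3* was at 39.6 ± 2.97, *Tlr11*, a sensor of profilin, at 30.0 ± 4.15, *Tlr5*, the flagellin receptor, at 19.2 ± 1.66 and *Tlr12* at 9.82 ± 1.70 normalized counts per kb. *Tlr2* and *Tlr4* were thus above the background median, and *Tlr3*, *Tlr5*, *Tlr11* and *Tlr12* below it. The adaptors *Myd88* at 757 ± 27.8 and *Ticam1* at 734 ± 27.0 normalized counts per kb overlapped.

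Cytosolic sensors were detected in 19 of 19 cases at a median percentile of 62.8. The inflammasome adaptor ASC, encoded by *Pycard*, was highest per kb at 1964 ± 15.5, before *Nlrp3* at 1483 ± 57.3 and *Sting1*, the adaptor of the cGAS pathway, at 1024 ± 18.8 normalized counts. *Nlrp3* was present at 6276, 5828 and 5941 normalized counts in replicates 1, 2 and 3, and *Casp1*, the protease it activates, at 2502, 2779.8 and 2779. *Cgas*, which senses cytosolic DNA, was present at 327, 411 and 284 normalized counts and at 65.6 ± 12.4 per kb, overlapping with *Mavs* at 67.5 ± 3.84. Of the RNA helicases that signal through MAVS, RIG-I, listed under the older symbol *Ddx58*, was at 2759 ± 39.7 normalized counts, and *Ifih1*, which encodes MDA5, at 1954 ± 58.2. *Aim2* at 197 ± 9.48 overlapped with *Nod2* at 178 ± 11.7, and *Nod1* was lowest at 30.1 ± 2.22 normalized counts per kb. *Naip2* was at 599 ± 5.79, *Naip5* at 263 ± 4.48 and *Nlrc4*, with which NAIP proteins assemble, at 139.5 ± 10.6 normalized counts per kb. The *Naip* genes are near-identical paralogs, and *Naip6* is listed jointly with *Naip7*, so these values are less certain.

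Interferon-stimulated genes were detected in 24 of 24 cases, with a median percentile of 80.5. *Ifitm3*, which restricts entry of viruses, was present at 35585, 35020.2 and 36070.5 normalized counts in replicates 1, 2 and 3. Per kb *Ifitm3* was at 27758 ± 410.3, *Bst2* at 8671 ± 142, *Isg15*, a ubiquitin-like modifier, at 3141 ± 84.7 and *Usp18*, which removes it, at 1516 ± 0.0678 normalized counts. Exons of another gene on the opposite strand cover 60.9% of the exon bases of *Ifitm3*, and the strand setting of the counting is not given in the sources used here. *Irf7* and *Stat2*, factors of the interferon response, were at 969 ± 31.9 and 945 ± 42.4 normalized counts per kb and overlapped. *Mx1* was at 619 ± 16.9, *Ifit1* at 241 ± 6.41 and *Rsad2* at 76.9 ± 2.67 normalized counts per kb. The lowest was *Ifi44* at 61.8 ± 2.56 normalized counts per kb, which overlapped with *Ifi205*, and with canonical transcript lengths *Rsad2* was lowest. The type I interferon gene *Ifnb1* itself had 3.05, 5.12 and 5.90 normalized counts in replicates 1, 2 and 3 and was not detected.

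Cytokine genes were detected in 19 of 26 cases, with a median percentile of 46.2 for the detected members, just below the middle of detected genes. *Il1rn*, which encodes the antagonist of IL-1, was present at 12274, 12349 and 12439.8 normalized counts in replicates 1, 2 and 3. *Tgfb1*, a regulatory cytokine, had 9925, 9339 and 9454 and *Tnf*, an inflammatory cytokine, 5329, 5014 and 5094 normalized counts. Per kb *Tnf* at 3139 ± 99.7 stood above *Il1rn* at 2232 ± 15, *Tgfb1* at 1883 ± 61.1 and *Ebi3*, a subunit of IL-27, at 1653 ± 75.7, and the neighbours did not overlap, although with canonical transcript lengths *Tnf* fell below *Il1rn* and *Tgfb1*. Of the exon bases of *Ebi3*, 51.1% lie opposite those of another gene. *Csf1*, the ligand of the M-CSF receptor, was at 774 ± 17.0 and *Osm* at 618 ± 25.1 normalized counts per kb. *Il1b*, *Il18* and *Il1a*, of the IL-1 family, were at 113 ± 9.75, 107 ± 6.40 and 104 ± 9.12 normalized counts per kb, each overlapping with the next. Antagonist mRNA was thus more abundant per kb than mRNA of the IL-1 agonists.

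*Il12b*, the shared subunit of IL-12 and IL-23, was present at 179, 169.7 and 184, *Il6* at 75.4, 83.6 and 91.4 and *Il27* at 38.1, 36.7 and 36.4 normalized counts in replicates 1, 2 and 3. *Il12a* had 9.14, 3.41 and 1.97 and *Il23a* 3.05, 1.71 and 1.97 normalized counts, and neither was detected. *Il10* and *Csf2* had no read in any library, which bounds them at the floors given above. *Csf2* encodes GM-CSF itself, so that no transcript of the growth factor supplied to the culture was counted at this depth. *Csf3* and *Il33* stayed at or below 3.05 normalized counts in each library.

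Of the chemokine genes 15 of 25 were detected, and the detected members had a median percentile of 95.2. *Ccl6* held 56.9% of the summed counts of the list. *Ccl9*, a further ligand of CCR1, was present at 13186, 13768 and 13610.2, *Ccl2*, which recruits CCR2+ monocytes, at 7812, 7587 and 7686 and *Ccl5*, which attracts T cells and monocytes, at 6747, 6580.4 and 6693 normalized counts in replicates 1, 2 and 3. Per kb *Ccl6* was at 80841 ± 1185, above *Ccl17* at 26926 ± 322, *Ccl22* at 22776 ± 416, *Ccl2* at 6762 ± 99.2 and *Ccl5* at 6498 ± 82.6 normalized counts, with no overlap between neighbours, but *Ccl2* and *Ccl5* changed places with canonical transcript lengths. *Ccl9* was at 4344 ± 96.7, *Ccl4* at 3166 ± 36.0, *Ccl7* at 2022 ± 40.6 and *Ccl3* at 812 ± 40.1 normalized counts per kb. *Cxcl16* was at 499 ± 10.8 and overlapped with *Cx3cl1* at 495 ± 25.9 normalized counts per kb, but 84.8% of the exon bases of *Cxcl16* lie opposite exons of *Med11* and *Zmynd15*. CC chemokines thus led the list. Among CXC chemokines *Cxcl10*, an interferon-induced ligand of CXCR3, was present at 429, 412 and 459.9, *Cxcl2*, which recruits neutrophils, at 89.9, 81.9 and 114 and *Cxcl9* at 3.05, 10.2 and 5.90 normalized counts in replicates 1, 2 and 3. *Cxcl11* had 3.05, 0 and 0 normalized counts, and *Ccl8* and *Ccl19*, the latter a ligand of CCR7, had no read in any library.

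Lysosomal genes were detected in 21 of 21 cases, with a median percentile of 97.4, and together held 3.55% of counts on genes with a symbol. The list and this share include the cathepsin inhibitors *Cst3*, at 176659 ± 3298, and *Cstb*, at 8668 ± 29.5 normalized counts. Among proteases *Ctsd* was present at 79548, 77112 and 77684, *Ctsb* at 85105, 82824 and 84403 and *Ctss*, of the class II pathway, at 45799.8, 46492 and 46235 normalized counts in replicates 1, 2 and 3. Per kb *Ctsd* was at 28231 ± 460.4, *Ctsb* at 10960.5 ± 152, *Ctsz* at 7927 ± 242 and *Ctsl* at 1069 ± 16.5 normalized counts. *Ctsk*, the cathepsin of osteoclasts, was lowest at 51.0 ± 2.85 normalized counts per kb. *Grn*, which encodes progranulin, was at 11936 ± 358, *Cd68* at 8017 ± 365 and *Gpnmb*, a glycoprotein of macrophages and DCs, at 5575 ± 129 normalized counts per kb. *Cd68* and *Ctsz* overlapped in their library ranges, as did *Psap* and *Cst3*. *Lyz1*, a close paralog of *Lyz2*, had 345, 281 and 316 normalized counts, and reads shared between the copies make its value less certain.

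Genes of iron handling and redox control were detected in 20 of 20 cases at a median percentile of 94.2, and *Fth1* held 47.7% of their counts. Of the NADPH oxidase genes, *Cyba* was at 11839 ± 618, *Ncf4* at 2924 ± 83.1, *Ncf1* at 2595 ± 44.4 and *Cybb* at 2052 ± 1.95 normalized counts per kb. *Cybb*, which encodes the catalytic subunit, had 11919, 11930.3 and 11942 normalized counts in replicates 1, 2 and 3. This spread is smaller than counting error alone gives on average, so it does not measure how stable the gene is. *Tfrc*, the transferrin receptor, was at 970.2 ± 49.1, and *Slc40a1*, the iron exporter ferroportin, at 99.1 ± 8.24 normalized counts per kb, overlapping with the importer *Slc11a2*. *Hmox1*, which degrades heme, was at 1829 ± 69.8 and *Gpx1*, a peroxidase, at 19684 ± 335 normalized counts per kb, and 85.3% of the exon bases of *Gpx1* lie opposite exons of another gene.

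Glycolytic genes were detected in 22 of 22 cases and TCA cycle genes in 20 of 20, with median percentiles of 84.4 and 84.7 among detected genes per kb. *Pkm*, which encodes pyruvate kinase, was present at 64910.3, 60852 and 60872 and *Ldha*, which encodes lactate dehydrogenase A, at 39377, 39424 and 39899 normalized counts in replicates 1, 2 and 3. The highest glycolytic genes per kb were *Ldha* at 8351 ± 61.0, *Pgam1* at 7613 ± 95.9, *Aldoa* at 6193 ± 133 and *Pkm* at 4637 ± 174 normalized counts, of which *Pkm* overlapped with *Tpi1* at 4486 ± 57.0. With canonical transcript lengths the order of these genes was *Pkm*, *Ldha*, *Aldoa*, *Pgam1* and *Tpi1*, and *Eno1* moved above *Tpi1*. Hexokinase mRNA came from *Hk3* at 1252 ± 50.3, *Hk1* at 809 ± 23.4 and *Hk2* at 373 ± 16.8 normalized counts per kb. *Hk3* is the isoform typical of myeloid cells. The glucose transporter *Slc2a1* was at 555 ± 24.7 and *Slc2a3* at 68.3 ± 4.57 normalized counts per kb. *Ldhb* at 11.2 ± 4.45 and *Eno2* at 9.82 ± 1.74 normalized counts per kb, isoforms of other tissues, were lowest and overlapped. *Gapdh* had 8458, 7150.0 and 6171 normalized counts in replicates 1, 2 and 3, a CV of 15.8%. This gene has many processed pseudogenes, and reads shared with them make its level and its spread less certain.

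In the TCA cycle *Sdhd*, a subunit of succinate dehydrogenase, was highest per kb at 2524 ± 46.5, and *Cs*, citrate synthase, was at 1294 ± 43.0 normalized counts. *Cs* and *Mdh2*, malate dehydrogenase, overlapped. *Suclg2*, of the succinyl-CoA synthetase that forms GTP, was lowest at 25.6 ± 1.18, whereas *Sucla2*, of the enzyme that forms ATP, was at 143 ± 5.53 normalized counts per kb. From *Sdhd* to *Suclg2* the members spanned a narrower range per kb than the glycolytic genes from *Ldha* to *Eno2*.

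Lipid genes were detected in 24 of 24 cases at a median percentile of 84.9. *Lpl*, lipoprotein lipase, was present at 33077, 34496 and 33286 and *Srebf2*, the regulator of cholesterol synthesis, at 25048, 23369.5 and 24218 normalized counts in replicates 1, 2 and 3. Per kb *Npc2*, which moves cholesterol out of lysosomes, was at 3977 ± 20.6, *Fabp5*, a fatty acid-binding protein, at 2908 ± 49.9, *Lpl* at 2750.1 ± 62.6 and *Srebf2* at 2592 ± 89.8 normalized counts, and with canonical transcript lengths *Npc2* fell below *Fabp5* and *Lpl*. *Acly* and *Fasn*, of fatty acid synthesis, were at 1118 ± 31.1 and 786 ± 30.3 normalized counts per kb. *Scd2* was at 845 ± 41.7 and its paralog *Scd1* at 61.0 ± 1.22 normalized counts per kb, so that *Scd2* was the main desaturase of the pair. *Cd36*, a scavenger receptor, was at 129.8 ± 4.21, *Abca1*, a cholesterol exporter, at 57.1 ± 2.06, and *Fabp4* and *Apoe*, abundant in many macrophages, at 45.2 ± 0.972 and 39.6 ± 3.06 normalized counts per kb.

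Enzymes of arginine, tryptophan and itaconate metabolism were detected in 11 of 12 cases. *Acod1*, which makes itaconate, was present at 3264, 3088 and 3180.0 and *Ass1*, which rebuilds arginine from citrulline, at 5758, 5432 and 5728 normalized counts in replicates 1, 2 and 3. *Nos2*, the inducible nitric oxide synthase, had 24.4, 14.5 and 19.7, *Ido1*, which degrades tryptophan, 46.5, 36.7 and 37.3 and *Ido2* 20.6, 29.8 and 13.8 normalized counts. *Nos2* and *Ido2* were close to the detection limit and overlapped per kb. *Kynu*, a later enzyme of the kynurenine pathway, was at 299.9 ± 13.7 and overlapped with the cystine transporter gene *Slc7a11* at 296 ± 11.6 normalized counts per kb.

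Eicosanoid enzymes were detected in 13 of 17 cases. In the leukotriene branch *Alox5ap*, which presents arachidonate to the lipoxygenase, was present at 23117, 24007 and 23799, *Alox5*, the lipoxygenase, at 17849, 17182 and 16999.5 and *Lta4h*, which forms leukotriene B4, at 15986, 16205 and 15804 normalized counts in replicates 1, 2 and 3. In the prostaglandin branch *Ptgs1*, which encodes COX-1, was present at 13495, 12496 and 13008 and *Ptgs2*, which encodes the inducible COX-2, at 84.6, 76.7 and 84.5 normalized counts. Per kb *Alox5ap* was at 6115 ± 120.4, *Alox5* at 4218 ± 109, *Ptgs1* at 3344 ± 128, *Lta4h* at 1458 ± 18.3 and *Ptgs2*, the lowest detected member, at 16 ± 0.879 normalized counts, and no neighbouring pair in the order of the 13 genes overlapped. With canonical transcript lengths *Lta4h* moved above *Alox5*, *Ptgs1* and *Ptges3*, and *Tbxas1* above *Hpgds* and *Alox15*. Of the prostaglandin E synthases *Ptges3*, which is also a co-chaperone, was at 2254 ± 71.9, *Ptges2* at 67.7 ± 2.91 and *Ptges* at 19.6 ± 1.74 normalized counts per kb. Among the other synthases *Ltc4s* was at 1208 ± 39.3, *Hpgds* at 501 ± 9.77 and *Tbxas1* at 197 ± 10.8 normalized counts per kb. *Ptgds*, *Ptgis*, *Hpgd* and *Alox12* were not detected. *Ptgs1*, *Alox5ap*, *Alox5* and *Lta4h* thus exceeded *Ptgs2* per kb in every library.

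A list drawn up around the pathway that the study examined, with genes of cPLA_2_, ARP2/3 and its regulators, the nuclear envelope, IKK and NF-κB, was detected in 24 of 24 cases at a median percentile of 85.8. *Pla2g4a*, which encodes cPLA_2_, was present at 697, 686 and 770.4 normalized counts in replicates 1, 2 and 3 and at 95.6 ± 6.13 per kb, below the median of detected genes. The ARP2/3 subunits that nucleate branched actin were far more abundant, with *Arpc5* at 12057 ± 256, *Arpc1b* at 7478 ± 272, *Actr2* at 6738 ± 260.0, *Arpc3* at 5966 ± 68.5, *Arpc2* at 4809 ± 77.5 and *Actr3* at 2455 ± 44.9 normalized counts per kb. These neighbours did not overlap, but with canonical transcript lengths the order was *Arpc1b*, *Arpc3*, *Arpc5*, *Arpc2*, *Actr2* and *Actr3*. *Arpc4* is listed jointly with *Ttll3*. Of the regulators of ARP2/3, the activators *Was* and *Wasf2* were at 1791 ± 115 and 1044 ± 35.8, *Wasl* at 24.5 ± 2.38 and the inhibitor *Arpin* at 49.7 ± 1.23 normalized counts per kb. Among lamins *Lmnb1* was at 1874 ± 18.7, *Lmna* at 869 ± 55.0 and *Lmnb2* at 156 ± 2.02 normalized counts per kb. *Lmna* had 5779, 5214 and 5166 normalized counts in replicates 1, 2 and 3 and overlapped per kb with *Nfkb2*. Of the IKK genes *Chuk* was at 461 ± 14.5, *Ikbkb* at 137 ± 6.69 and *Ikbkg* at 78.5 ± 5.91 normalized counts per kb. Of NF-κB subunits *Nfkb2* was at 903 ± 39.1, *Nfkb1* at 736 ± 6.08, *Rela* at 629.9 ± 21.0 and *Rel* at 97.2 ± 6.80 normalized counts per kb, the last overlapping with *Pla2g4a*. With canonical transcript lengths *Ikbkb* moved above *Chuk*, and *Nfkb1* above *Nfkb2*.

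**Figure D2:**
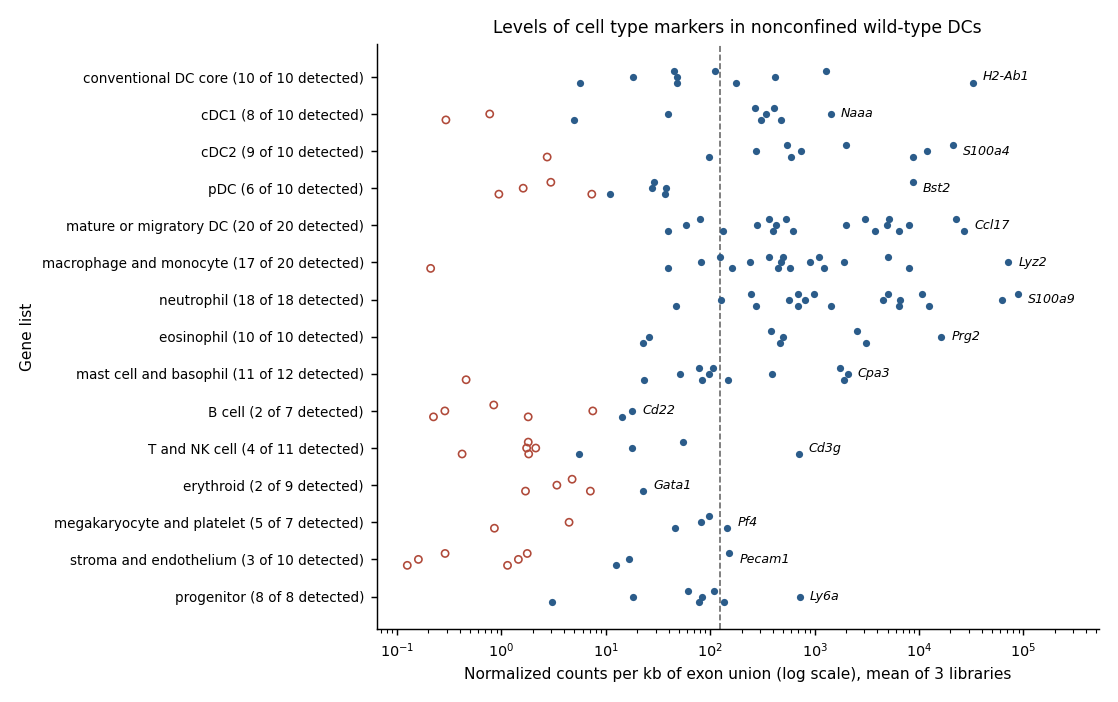
Levels of cell type markers, as normalized counts per kb of exon union on a log axis. Filled points are detected genes and open points are genes with reads below the detection limit, each the mean of 3 libraries, genes at 0 or without a known length are not drawn, and the dashed line marks the median of detected genes, 125; neutrophil, mature DC and macrophage markers reach high levels, whereas most B cell, erythroid and stromal markers lie far to the left.

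Markers of other cells that the culture could hold were measured in the same libraries, and their part in the levels given here was not tested. Neutrophil markers were detected in 18 of 18 cases, with a sum of 281409, 286244 and 284783 normalized counts in replicates 1, 2 and 3, or 0.904% of counts on genes with a symbol. The most abundant was *S100a9* at 111945, 115696 and 113124 normalized counts, which monocytes express as well. Granule genes of maturing neutrophils were present, with *Ltf*, lactoferrin, at 44268, 44362 and 43998, *Ngp* at 14610.3, 14353 and 14518 and *Lcn2*, lipocalin, at 16748, 16769 and 17163 normalized counts in replicates 1, 2 and 3. *Ly6g*, which defines neutrophils, was present at 488, 557 and 589.6 normalized counts. Genes of primary granules, made by promyelocytes, were lower per kb, with *Elane* at 981 ± 83.1, *Ctsg* at 689.6 ± 30.7 and *Mpo* at 687 ± 26.2 against 12422 ± 53.2 normalized counts per kb for *Ltf*. *Cxcr2* and *Retnlg*, of late neutrophils, were at 127 ± 5.12 and 46.9 ± 7.13 normalized counts per kb. *Ctsg* and *Mpo* overlapped in their library ranges per kb. The median CV of the neutrophil markers was 3.43%, and 2 of the 18 genes also stand on another list. Their median percentile among detected genes per kb was 91.2. It was 79.8 for macrophage and monocyte, 79.4 for eosinophil and 46.5 for mast cell and basophil markers.

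Eosinophil markers, of which 2 also stand on another list, were detected in 10 of 10 cases with a sum of 34906, 34734 and 34727 normalized counts in replicates 1, 2 and 3. *Prg2*, major basic protein, held the largest part with 17162, 17446 and 17221 normalized counts, and *Epx*, the eosinophil peroxidase, had 7310.5, 6821 and 6885. *Siglecf* was at 1426, 1346 and 1435 and *Il5ra*, the IL-5 receptor, at 87.6, 123 and 82.5 normalized counts. The *Ear* genes are near-identical paralogs, partly in joint entries, with less certain values. Mast cell and basophil markers, of which 3 also stand on another list, were detected in 11 of 12 cases with a sum of 13100, 13172 and 13396 normalized counts. *Cpa3*, a granule protease of both, was the most abundant at 3187, 3380.2 and 3337, and the basophil proteases *Mcpt8* and *Prss34* had 1687, 1809 and 1735 and 2922, 2736 and 2983 normalized counts in replicates 1, 2 and 3. The connective tissue mast cell protease *Mcpt4* was near 0 at 1.52, 0 and 0 normalized counts. By contrast *Cma1* and *Tpsb2*, of the same list, were detected, at 66.3, 48.6 and 51.1 and 53.3, 63.1 and 35.4 normalized counts.

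Macrophage and monocyte markers were detected in 17 of 20 cases with a sum of 313993, 315916 and 315556 normalized counts in replicates 1, 2 and 3, of which *Lyz2* held 75.7%. Of these 20 genes, 9 also stand on another list. *Adgre1*, which encodes F4/80, was present at 6682, 6690.4 and 6823 and *Mertk*, a receptor for apoptotic cells, at 756, 785 and 796 normalized counts in replicates 1, 2 and 3. *C1qa*, *C1qb* and *C1qc*, which encode the chains of complement C1q, were at 389 ± 17.7, 2269.6 ± 106 and 1677 ± 117 normalized counts. *Ly6c2*, of inflammatory monocytes, was at 3727, 3914 and 3729 normalized counts in replicates 1, 2 and 3. *Timd4* and *Vsig4*, which mark some tissue macrophages, had no read in any library, and *Cd163* had 1.52, 0 and 1.97 normalized counts.

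Lymphoid, erythroid and stromal markers were mostly not detected. Of 7 B cell markers with an entry, 2 were detected, with a sum of 146, 125 and 139.5 normalized counts in replicates 1, 2 and 3, of which *Cd22* held the largest part, while *Pax5* had 7.62, 0 and 0 normalized counts. Of the T and NK cell markers 4 of 11 were detected, with a sum of 2559.5, 2593 and 2523 normalized counts. *Cd3g* alone held 90.1% of that sum with 2337, 2307 and 2274 normalized counts, whereas its partners *Cd3d* and *Cd3e* had 124, 169 and 129 and 16.8, 18.8 and 32.4. No exon of another protein-coding or long noncoding RNA gene in the annotation used overlapped those of *Cd3g*. Pseudogenes and readthrough transcripts were not compared. *Gzma* and *Eomes* had no read in any library, and *Cd8a* had 6.86, 8.53 and 7.86 normalized counts. Of the erythroid markers 2 of 9 were detected, with a sum of 194, 203 and 200.47 normalized counts, of which the joint entry *Hbb-b2 // Hbb-bt* held the largest part, and *Alas2*, of heme synthesis in red cells, was at 0 in all 3 libraries. Megakaryocyte and platelet markers were detected in 5 of 7 cases with a sum of 2436, 2219 and 2215 normalized counts, to which *Itga2b* added most with 849, 751 and 771, while *Gp9* had 3.05, 6.82 and 1.97. Per kb *Pf4* at 145 ± 11.2 lay above *Itga2b* at 96.6 ± 6.29 normalized counts. Of the stromal and endothelial markers 3 of 10 were detected with a sum of 1814, 1702 and 1879 normalized counts, most of it from *Pecam1*, which leukocytes also express, and *Dcn* was at 0 while *Cdh5* had 12.2, 5.12 and 5.90 normalized counts.

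Progenitor markers, of which 3 also stand on another list, were detected in 8 of 8 cases with a sum of 7704, 7505 and 7577 normalized counts in replicates 1, 2 and 3. *Ly6a*, which encodes SCA-1 and is also induced by interferon, was the most abundant at 3309, 3352 and 3344, and *Cd34* was at 1696, 1589 and 1602 normalized counts. *Meis1* was lowest at 47.2, 27.3 and 29.5 normalized counts. Genes of cell division were detected in 20 of 20 cases at a median percentile of 84.9. *Top2a*, a topoisomerase of dividing cells, was present at 20099, 20902 and 20835, *Mki67* at 3757, 4189 and 3937 and *Pcna*, the replication clamp, at 8853, 8868 and 8694 normalized counts in replicates 1, 2 and 3. Per kb *Pcna* was at 3669 ± 40.3, *Top2a* at 2261 ± 48.9, *Ccna2*, a cyclin of S and G2 phase, at 1608 ± 52.6 and *Mki67* at 386 ± 21.1 normalized counts. The mRNAs of proliferating cells were thus measurable at the end of the culture.

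Genes of the early response and of RNA stress were detected in 20 of 20 cases at a median percentile of 78.2. *Jund* was present at 21114, 19492 and 19606, *Egr1* at 3996, 3509 and 3726 and *Fos* at 1005, 1028 and 976 normalized counts in replicates 1, 2 and 3. Heat shock genes *Hspa1a* and *Hspa1b*, near-identical copies, were at 132, 169 and 148 and 282, 278 and 291 normalized counts. Of the exon bases of *Jund*, 52.6% lie opposite those of another gene. Of 22 housekeeping and structural genes 21 were found in the table with a symbol, and all 21 were detected, led by *Actb*. *Ppia*, cyclophilin A, had only 488, 359 and 490.4 normalized counts in replicates 1, 2 and 3, and reads shared with its processed pseudogenes make this value uncertain. *Xist*, the noncoding RNA of the inactive X chromosome in female cells, was present at 27953, 33681 and 30681 normalized counts. The Y-linked genes *Ddx3y*, *Eif2s3y*, *Kdm5d* and *Uty* stayed at or below 3.05 normalized counts in each library. Entries with a symbol on chromosome Y summed to 2953 ± 258 normalized counts, nearly all from *Erdr1*, a gene of the region shared with the X chromosome that was chosen after its values were seen, at 3199.6, 2687 and 2964 in replicates 1, 2 and 3.

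Entries without a symbol held 7.89 ± 0.203% of all counts and were left out of the ranking, and 1956 of these 37020 entries were detected. They include the mitochondrial chromosome, whose 13 entries held 3.21 ± 0.137% of all counts. The entry from 5325 to 6941 on chromosome M, which covers *mt-Co1*, a subunit of cytochrome c oxidase, had 538825, 587854 and 565767 normalized counts in replicates 1, 2 and 3, more than any gene with a symbol. The entry from 11742 to 15288, which covers *mt-Nd5*, *mt-Nd6* and *mt-Cytb*, had 225198 ± 6926 normalized counts. None of the 9 mitochondrially encoded genes listed was found by symbol, and no entry on chromosome M covered at least 50% of *mt-Atp6*, *mt-Atp8*, *mt-Co2* or *mt-Co3*. On chromosome 1 the entry from 24652269 to 24653895, which overlaps the pseudogene *Atp6-ps*, had 275843 ± 3765 normalized counts, and the entry from 24653960 to 24654649 had 109051 ± 5850. Mitochondrial reads that fit such nuclear copies cannot be assigned to either place. Among genes with a symbol, the 84 ribosomal protein genes held 3.15 ± 0.0116% of counts. Pseudogenes such as *Rps6-ps4*, at 39399 ± 232 normalized counts, and entries without a symbol are not in this share.

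**Figure D3:**
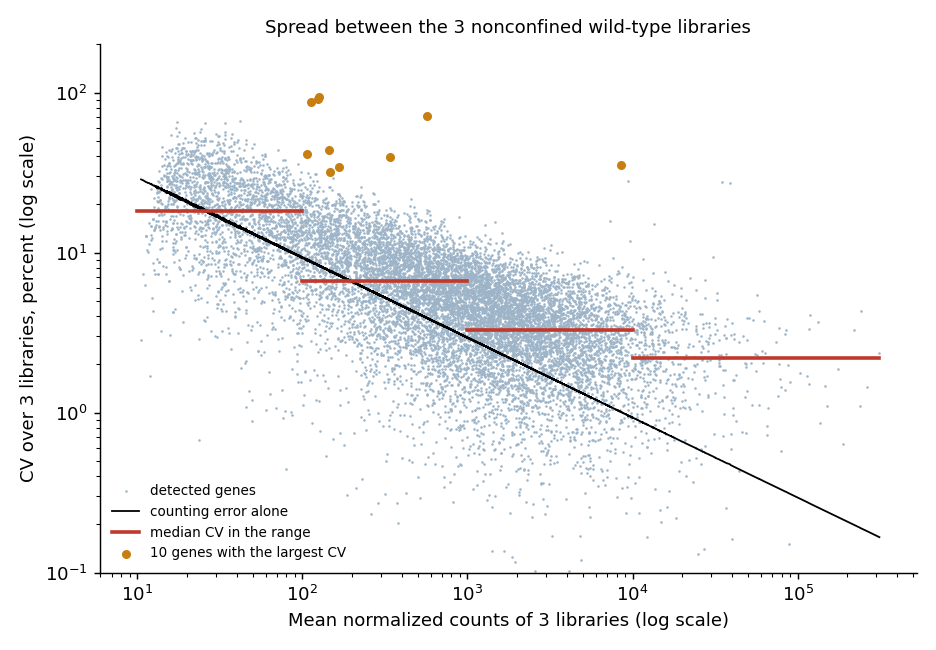
Coefficient of variation over the 3 libraries against the mean of their normalized counts for detected genes, both on log axes. The black line gives the CV from counting error alone, red lines give the median CV in 4 ranges of the mean, from 18.2% at 10 to 100 to 2.18% at 10000 or more, orange points mark the 10 genes with the largest CV at a mean of at least 100, of which 3 had a library at 0 and were not detected, and 8 detected genes with a CV below 0.1% are not drawn.

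The 3 libraries resembled each other closely. Over detected genes the median CV was 5.13%, beside 3.31% from counting error alone. At 10 to 100 normalized counts it was 18.2% against 14.8%, at 100 to 1000 it was 6.60% against 4.54%, at 1000 to 10000 it was 3.30% against 1.95%, and at 10000 or more it was 2.18% against 0.741%. Relative to the spread, counting error alone was thus larger for low genes than for abundant genes. The value from counting is an expected CV, whereas the median is of CVs each estimated from 3 libraries. Such a median tends to lie below the CV it estimates, so the pairs of values understate the spread beyond counting error. The highest library exceeded the lowest by more than 1.5-fold in 928 detected genes (7.37%), of which 855 had a mean below 100. Among 10459 detected genes averaging 100 normalized counts or more, the SD of the log2 difference was 0.14 between replicates 1 and 2, 0.14 between replicates 1 and 3 and 0.13 between replicates 2 and 3. Of the 73 genes with a mean of at least 100 and a ratio above 1.5, replicates 1, 2 and 3 lay farthest from the middle value in 25, 24 and 24. Over the 10459 genes replicate 1 was highest in 4293, replicate 2 in 2968 and replicate 3 in 3198, and replicates 1, 2 and 3 were lowest in 3358, 3909 and 3192. The median log2 difference from replicate 1 was -0.02 for replicate 2 and -0.01 for replicate 3. Among the 73 genes replicates 1, 2 and 3 were highest in 31, 21 and 21.

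Genes with the largest CV at a mean of at least 100 were mostly histone genes, noncoding RNAs, retrocopies or joint entries. *H2ac19*, a histone gene next to its near-identical copy *H2ac18*, had 0, 233 and 145 normalized counts in replicates 1, 2 and 3, while *H2ac18* had 480.1, 213 and 327. All exon bases of *H2ac19* and *H2ac18* lie opposite those of other genes, and *Gm18905* shares 76.2% of its exon bases with another gene on the same strand. The joint entry *Rn7s1 // Rn7s2* had 152, 0 and 220.1 and the joint entry *Zfp973 // Zfp965* 178, 160.3 and 0 normalized counts, each with a library at 0. Reads shared between near-identical copies or overlapping genes make such values uncertain. The pseudogene *Rpl31-ps12* and the retrogene *Aldoart1* had 218, 1017 and 478 and 219, 113 and 106 normalized counts, the joint microRNA entry *Mir692-2 // Mir692-3* had 10688, 5079 and 9790.5, and *Gm32633* and *Gm18905* had 85.3, 77.6 and 158 and 176, 92.9 and 173. *Kcnq1ot1*, the long noncoding RNA of an imprinted domain, had 114, 229 and 161 normalized counts in replicates 1, 2 and 3. Among list members *Malat1*, a nuclear noncoding RNA listed jointly with *Mascrna*, had 27284, 45898 and 31773 normalized counts, highest in replicate 2. No DC lineage, sensor or cytokine gene was among these 10.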

How the data were processed

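Poly(A)-selected RNA of 18 libraries in 6 groups was sequenced, and 3 libraries of nonconfined cPLA_2_ WT DCs were described. The values deposited by the authors are signal, namely reads per gene over the DESeq2 size factor of the library, with length left unscaled. The submitters' processing notes name STAR 2.7.5a, featureCounts 1.5.0, DESeq2 and R 3.5.3, with the mm39 genome. Multiplying by recovered size factors gave whole reads (100% of values, tolerance 1e-06). Genes without a symbol were left out of rankings. Detection required 10 normalized counts in each library. Counts per kb used exon unions of GENCODE genes matched by symbol and position, since FAST DB, the annotation used for counting, was not at hand. The CV over libraries was set beside that of counting error. Members and lists were chosen with earlier results of these data known. The text names the 30 genes with the highest counts, the 15 highest per kb, the 10 with the largest CV at a mean of at least 100, and members of 42 lists. No test was made. Alternatives were other detection limits, transcript lengths, pseudocounts, same totals, TMM (edgeR 4.0.16, R 4.3.3) and leaving out each library. Python 3.11.15, pandas 2.3.3, NumPy 2.4.6 and matplotlib 3.10.9 were used, and the calculations were tested on simulated data.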

Additional observations from a re-analysis of the deposited data

How the results depend on the processing

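The number of genes detected was 12587 with the size factors of the authors, with the same total per library and with TMM scaling. It was 13210 at a limit of 5 and 10306 at a limit of 100 normalized counts in each library, 16451 with any count above 0, and 12698 to 12726 when a library was left out. Of the listed genes 530 were detected, against 541 at a limit of 5, 494 at a limit of 100 and 530 to 534 when a library was left out. The share of the 100 most abundant genes, 22.1%, was 36.9% on counts per kb of exon union, and the cause was not tested. With entries without a symbol included, an alternative chosen after seeing the data, it was 24.2%, since the ranking then held further abundant entries. Leaving out a library gave 22.0% to 22.1%. The median CV, 5.13%, was 4.27% among genes with at least 100 normalized counts in each library, a set without the low genes. It ranged from 3.67% to 4.61% when a library was left out, where the CV rests on 2 libraries, and the cause was not tested. Scaling to the same total gave 5.05% and TMM 5.17%. A paired analysis did not apply, since only the 3 libraries of nonconfined cPLA_2_ WT DCs were described and no test was made. Depth limits the low genes, since 3 reads in a library equal 2.29 to 2.95 normalized counts and counting error alone gives a CV of 14.8% between 10 and 100 normalized counts.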
